A study of Homo sapiens with 24 samples.

Results

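Drug-treated states of the SKBR3 breast cancer cell line were compared across all genes, therapy-induced senescence under the acetyl-CoA carboxylase (ACC) inhibitor ND-646 and therapy-induced senescence under the CDK4/6 inhibitor palbociclib. The libraries were taken by their labels, 3 for ND-646 and 3 for palbociclib, and make up 6 of the 24 RNA-seq libraries of the series. SKBR3 is a human line with amplified ERBB2, the gene for the receptor kinase HER2. Cells were given 250 nmol/L ND-646 or 1 umol/L palbociclib, both are labelled as refed on day 3, and both were collected on day 7. The day 7 untreated cells (3 libraries) served as the shared reference for each drug, and cells treated with 250 nmol/L TVB-3166, an inhibitor of fatty acid synthase, are given as values beside ND-646. The labels of the untreated cells name no refeeding, so a change against untreated cells cannot be told apart from an effect of refeeding, which the 2 drug groups share. No label gives an engineered allele in any group, all of which are the same line, and the 2 drugs were used at different concentrations. The comparison addresses how the transcript changes of cells made senescent by blocking fatty acid synthesis at its entry differ from those of cells made senescent by blocking the G1 kinases.

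ACC converts acetyl-CoA to malonyl-CoA, the building block of fatty acid synthesis and a brake on the entry of fatty acids into mitochondria. CDK4 and CDK6, with their D-type cyclins, phosphorylate the retinoblastoma protein and so release the E2F factors that switch on genes for DNA replication. Senescent cells have left the cell cycle in a lasting way, often enlarge their lysosomes, and secrete a mixture of cytokines, proteases and growth factors known as the senescence-associated secretory phenotype. Lipid synthesis genes are under SREBP factors, sterol efflux genes under LXR, and fatty acid oxidation genes under PPAR receptors.

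The 6 libraries held 29405121 to 32354645 counts over 14493 genes, of which 13743 passed the filter on low counts. One ND-646 library stood apart from the other 2. In ND-646 replicate 1, genes with a transcript under 1 kb took 13.3% of counts, against 8.66% and 8.31% in replicates 2 and 3 and 6.85% to 7.66% in palbociclib cells. Genes with a transcript over 5 kb took 18.6% of its counts, against 27.4% and 28.3% in the other ND-646 libraries. Its distance to replicates 2 and 3 over the tested genes was 79.8 and 83.1, while replicates 2 and 3 were 38.8 apart and the palbociclib libraries 37.4 to 42.8. The difference between drugs carried a trend with transcript length, from a median of 0.36 on the log2 scale below 1 kb to -0.10 above 6 kb, which became 0.09 and 0.05 without that library. Counts without single libraries, this one included, are given beside the gene lists that they moved most. These are bulk RNA measurements, in which fewer cells of a kind and less RNA per cell cannot be told apart.

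Gene groups that separate the 2 states have well known promoter elements, and the 250 bases before the RefSeq start of 8 of their genes are printed to show them. E2F factors bind TTTNNCGC in replication genes, the CHR element TTTGAA lies in mitotic genes, interferon response elements read GAAANNGAA, and ATF4 with its C/EBP partner binds TGATGNAA. Each motif was searched on both strands of the promoters of 10335 tested genes. A gene with several starts was counted once, as a match if any of its windows held the motif. Promoter counts and shares here are therefore of genes. The E2F motif was in 14 of 28 replication promoters (50% against 11.4% of all) and the CHR motif in 20 of 34 mitotic promoters (58.8% against 11.9%). The interferon motif was in 10 of 14 antiviral promoters (71.4% against 7.49%), and the ATF4 motif in 5 of 24 stress response promoters (20.8% against 2.2%) and 3 of 16 tRNA synthetase promoters (18.8%). A sterol element of the form TCACNCCAC was in 0 of 16 cholesterol synthesis promoters and in 1 of 15 promoters of the SREBP group, that of SREBF2, against 1.12% of all promoters, and says only that these letters are not in those windows. Capitals mark the matches, which are descriptions of sequence and not measured binding. Coordinates are GRCh38.p14, as in RefSeq, and each run is written in the direction of the gene. RFC3 (chr13:33817899-33818148, plus strand) and ORC6 (chr16:46689409-46689658, plus strand) show the E2F motif, BUB1B (chr15:40160819-40161068, plus strand) and CDC20 (chr1:43358731-43358980, plus strand) the CHR motif, IFI6 (chr1:27672193-27672442, minus strand) and OAS3 (chr12:112938224-112938473, plus strand) the interferon motif, and AARS1 (chr16:70289507-70289756, minus strand) and GARS1 (chr7:30594628-30594877, plus strand) the ATF4 motif.
RFC3: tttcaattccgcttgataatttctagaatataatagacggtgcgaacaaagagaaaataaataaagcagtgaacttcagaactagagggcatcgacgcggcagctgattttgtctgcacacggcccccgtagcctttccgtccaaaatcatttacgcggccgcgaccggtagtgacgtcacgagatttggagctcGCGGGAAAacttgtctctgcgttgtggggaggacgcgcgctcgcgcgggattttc
ORC6: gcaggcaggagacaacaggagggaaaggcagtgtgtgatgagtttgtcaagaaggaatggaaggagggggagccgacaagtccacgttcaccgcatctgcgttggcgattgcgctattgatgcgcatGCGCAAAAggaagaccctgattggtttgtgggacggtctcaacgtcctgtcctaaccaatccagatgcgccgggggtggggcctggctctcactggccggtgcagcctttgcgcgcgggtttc
BUB1B: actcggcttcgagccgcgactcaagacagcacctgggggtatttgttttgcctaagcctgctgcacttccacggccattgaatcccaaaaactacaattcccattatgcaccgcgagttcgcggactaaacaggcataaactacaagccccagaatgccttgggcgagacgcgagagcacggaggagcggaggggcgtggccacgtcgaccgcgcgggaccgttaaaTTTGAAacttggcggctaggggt
CDC20: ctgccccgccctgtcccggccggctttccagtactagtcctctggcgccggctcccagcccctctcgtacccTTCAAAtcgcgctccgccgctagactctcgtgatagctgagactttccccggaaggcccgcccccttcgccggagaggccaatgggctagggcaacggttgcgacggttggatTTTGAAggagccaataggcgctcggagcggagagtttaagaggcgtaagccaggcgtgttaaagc
IFI6: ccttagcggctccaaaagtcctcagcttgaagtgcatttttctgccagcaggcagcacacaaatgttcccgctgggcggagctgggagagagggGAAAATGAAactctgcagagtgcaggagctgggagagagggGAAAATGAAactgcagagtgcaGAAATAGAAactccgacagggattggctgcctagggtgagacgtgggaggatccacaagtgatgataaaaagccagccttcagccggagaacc
OAS3: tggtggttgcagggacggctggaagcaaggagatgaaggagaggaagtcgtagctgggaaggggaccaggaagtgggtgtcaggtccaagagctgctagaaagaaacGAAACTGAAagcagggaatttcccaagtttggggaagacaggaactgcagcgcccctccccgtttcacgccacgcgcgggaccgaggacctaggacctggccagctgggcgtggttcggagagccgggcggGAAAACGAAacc
AARS1: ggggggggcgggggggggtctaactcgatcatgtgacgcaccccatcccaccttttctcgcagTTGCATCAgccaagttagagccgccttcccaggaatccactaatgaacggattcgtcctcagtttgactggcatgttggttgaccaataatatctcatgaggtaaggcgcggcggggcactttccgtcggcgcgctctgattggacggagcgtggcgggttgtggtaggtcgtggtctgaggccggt
GARS1: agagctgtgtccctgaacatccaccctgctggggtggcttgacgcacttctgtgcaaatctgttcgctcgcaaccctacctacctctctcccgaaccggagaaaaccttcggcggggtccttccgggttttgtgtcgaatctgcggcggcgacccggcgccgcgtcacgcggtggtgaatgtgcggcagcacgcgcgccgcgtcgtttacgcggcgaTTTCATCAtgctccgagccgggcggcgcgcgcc

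The transcriptomes of the 2 drug-treated groups differed widely. In ND-646 cells 1690 genes were higher (12.3% of those tested) and 1770 lower (12.9%) than in palbociclib cells by edgeR's quasi-likelihood test at an adjusted p under 0.05. A fold of at least 2 was reached by 685 of them upwards (4.98%) and 892 downwards (6.49%), and in 1576 of these 1577 the 3 ND-646 and 3 palbociclib libraries did not overlap. Non-overlap alone was common, at 48.2% of all tested genes. For 8143 genes (59.3%) the 95% interval of the difference lay within 2-fold. Of the gene lists, more members of cholesterol synthesis, the stress response, the antiviral and NRF2 groups and mitochondrial mRNAs were higher than lower with ND-646, and fewer of the replication, repair, mitotic and PPAR groups, as counted below. Higher genes made up 43.4% of the calls past 2-fold, and 23.2% when libraries were scaled by their totals alone, which moved the median of all genes by -0.23. Without palbociclib replicate 1 the 2-fold counts were 416 and 599, and without palbociclib replicate 3 they were 426 and 589. With no fold limit, 595 genes were higher and 793 lower without palbociclib replicate 1. They numbered 862 and 1079 without palbociclib replicate 2, and 610 and 785 without palbociclib replicate 3. Without ND-646 replicates 1, 2 and 3 they numbered 2955 and 2904, 1367 and 1281, and 1503 and 1450. These fits tested 13806 to 13880 genes. List counts below that leave out a library come from these fits and are to be read beside these totals. Among genes named for their lists, the calls of AGPAT2, B2M, HILPDA, IFNGR1, KRT7, BTC, H2BC4 and PSMB9 were lost when any 1 palbociclib library was left out, the last 3 also without ND-646 replicate 2 or 3. Leaving out palbociclib replicate 1 also ended those of CCNA2, CTSV, LPCAT3, ERBB4, GLA, LPIN2, LRIG1, MITF and TFAP2B, and leaving out palbociclib replicate 3 those of ABCA7, TAP2, GLA, LPIN2, LRIG1, MITF, TFAP2B, KRT17 and H2BC8. The calls of KRT17 and H2BC8 were also lost without palbociclib replicate 2, those of ERBB4 and TFAP2B without ND-646 replicate 2, and that of H2BC8 without ND-646 replicate 3.

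**Figure D1:**
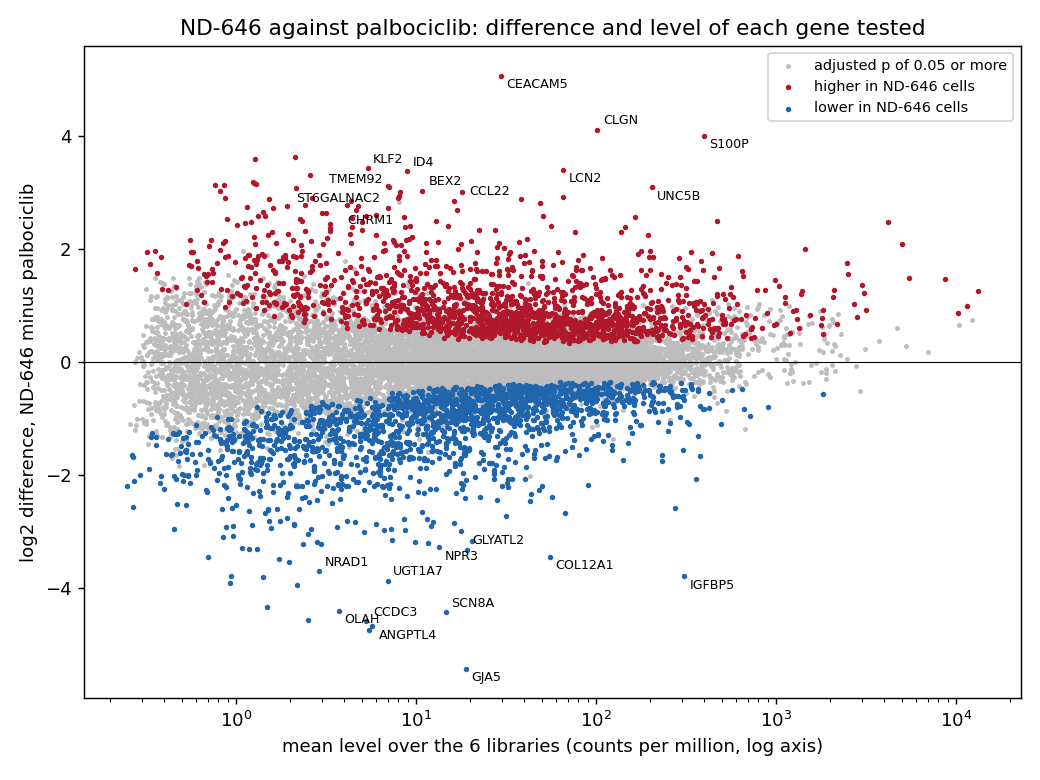
Log2 difference, ND-646 minus palbociclib, of each of the 13743 tested genes against its mean CPM over the 6 libraries on a log axis, with the 1690 genes higher in ND-646 cells in red, the 1770 lower in blue and genes that did not pass in grey. Labels mark genes with the largest differences in each direction, from CEACAM5 at the top to GJA5 at the bottom.

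The largest positive difference was in CEACAM5, the carcinoembryonic antigen of epithelial surfaces (chr19:42212504-42234353, plus strand in GRCh37). ND-646 libraries held 49.04, 60.1 and 64.2 CPM (counts scaled to library size), palbociclib libraries 1.19, 2.76 and 1.23, and untreated libraries 4.497, 5.096 and 3.03. Every ND-646 library was above every palbociclib and untreated library. The log2 difference between drugs was 5.06 ± 0.34 (SE), a 33.4-fold change with an adjusted p of 0.000476 in edgeR. TVB-3166 cells held 52.1 ± 6.16 CPM of CEACAM5 (SD, n = 3). Reads of this gene may be shared with its near copy CEACAM6. CLGN, a chaperone of the endoplasmic reticulum, followed with 229, 177 and 173 CPM against 7.88, 15.97 and 9.598, and S100P, a calcium-binding protein, with 1305, 428 and 511 against 42.1, 58.96 and 37.8. KLF2, a zinc-finger factor, stood at 15.2, 5.74 and 8.78 CPM against 1.45, 0.7302 and 0.538, and UNC5B, a netrin receptor, at 343, 355 and 401 against 19.5, 77.5 and 31.1. In all 4 the groups were apart. The other genes of the 12 with the largest positive differences were LCN2, ID4, ST6GALNAC2, TMEM92, BEX2, CCL22 and CHRM1, with log2 differences between 3.01 and 3.40. For ID4 and CHRM1 the palbociclib cells were the ones that differed from untreated cells in edgeR, by -2.80 (adjusted p 3.30e-06) and -3.13 (4.00e-06), while ND-646 cells differed by 0.57 (0.0818) and -0.12 (0.663). The difference of S100P was 4.001 and fell to 3.35 without ND-646 replicate 1, while UNC5B (3.09) and BEX2 (3.03) reached 3.84 and 3.66 without palbociclib replicate 2.

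GJA5, which encodes the gap junction protein connexin 40, had the largest negative difference (chr1:147228332-147245466, minus strand in GRCh37). It held 0.642, 0.933 and 0.983 CPM in ND-646 cells and 38.7, 35.2 and 37.1 in palbociclib cells, against 36.3, 48.6 and 34.3 in untreated cells, a 43.1-fold difference (-5.43 ± 0.20 (SE) on the log2 scale). Palbociclib and untreated libraries overlapped, and all ND-646 libraries were below them. Large differences were also seen in ANGPTL4, described with the lipid genes, and CCDC3, with 0.728, 0.179 and 0.386 CPM against 9.21, 12.2 and 8.97. SCN8A, a sodium channel, was at 0.5997, 1.54 and 1.72 against 26.8, 17.7 and 39.8, and IGFBP5, a binding protein of insulin-like growth factors, at 29.6, 47.2 and 48.8 against 665, 405 and 663. COL12A1, a fibril-associated collagen, held 4.63, 10.9 and 12.4 against 96.3, 90.5 and 118, with no overlap. OLAH, UGT1A7, NRAD1, GLYATL2 and NPR3 were also among the 12 with the largest negative values, with log2 differences from -4.40 to -3.28, and UGT1A7 shares its last exons with other genes of its locus. OLAH reached -5.51 without ND-646 replicate 2 and NRAD1, a non-coding RNA at -3.71, reached -4.61 without ND-646 replicate 3.

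Among the genes of the drug targets ACACB passed, and ACACA, CDK4 and CDK6 did not. ACACA, the cytosolic ACC, held 169, 216 and 292 CPM with ND-646 and 156, 164 and 164 with palbociclib, groups that did not overlap but did not pass (log2 difference 0.48, 95% interval 0.02 to 0.93, adjusted p in edgeR 0.112). ACACB, the ACC at the mitochondrial surface, held 4.71, 8.86 and 10.6 CPM with ND-646, 25.1, 25.4 and 30.4 with palbociclib and 67.2, 57.99 and 64.3 in untreated cells. The log2 difference between drugs was -1.75 ± 0.28 (SE) (adjusted p 0.00463), and against untreated cells it was -2.97 under ND-646 and -1.22 under palbociclib. CDK4, a palbociclib target, stood at 123, 83.03 and 81.05 against 96.8, 95.9 and 89.8 CPM, with a difference of 0.01 and an interval of -0.38 to 0.40. CDK6, the other target, differed by -0.36 (-0.89 to 0.17), CCND1 by -0.36 (-0.69 to -0.02), CCND3 by -0.29 (-0.61 to 0.02) and RB1 by 0.13 (-0.27 to 0.53). CCND1, CCND3 and RB1 did not pass either, and CCND2 was not analysed here. FASN, the synthase that uses malonyl-CoA, was the partner gene that passed, with 14399.8, 14347 and 17669 CPM with ND-646 against 6369.7, 8673 and 8136 with palbociclib and 6341, 5750.3 and 5286 untreated (log2 difference 0.99 ± 0.21 (SE), adjusted p 0.0129 in edgeR). TVB-3166 cells held 14219 ± 2496 CPM of FASN (SD, n = 3). Without palbociclib replicate 1 or 3 the FASN difference no longer passed.

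**Figure D2:**
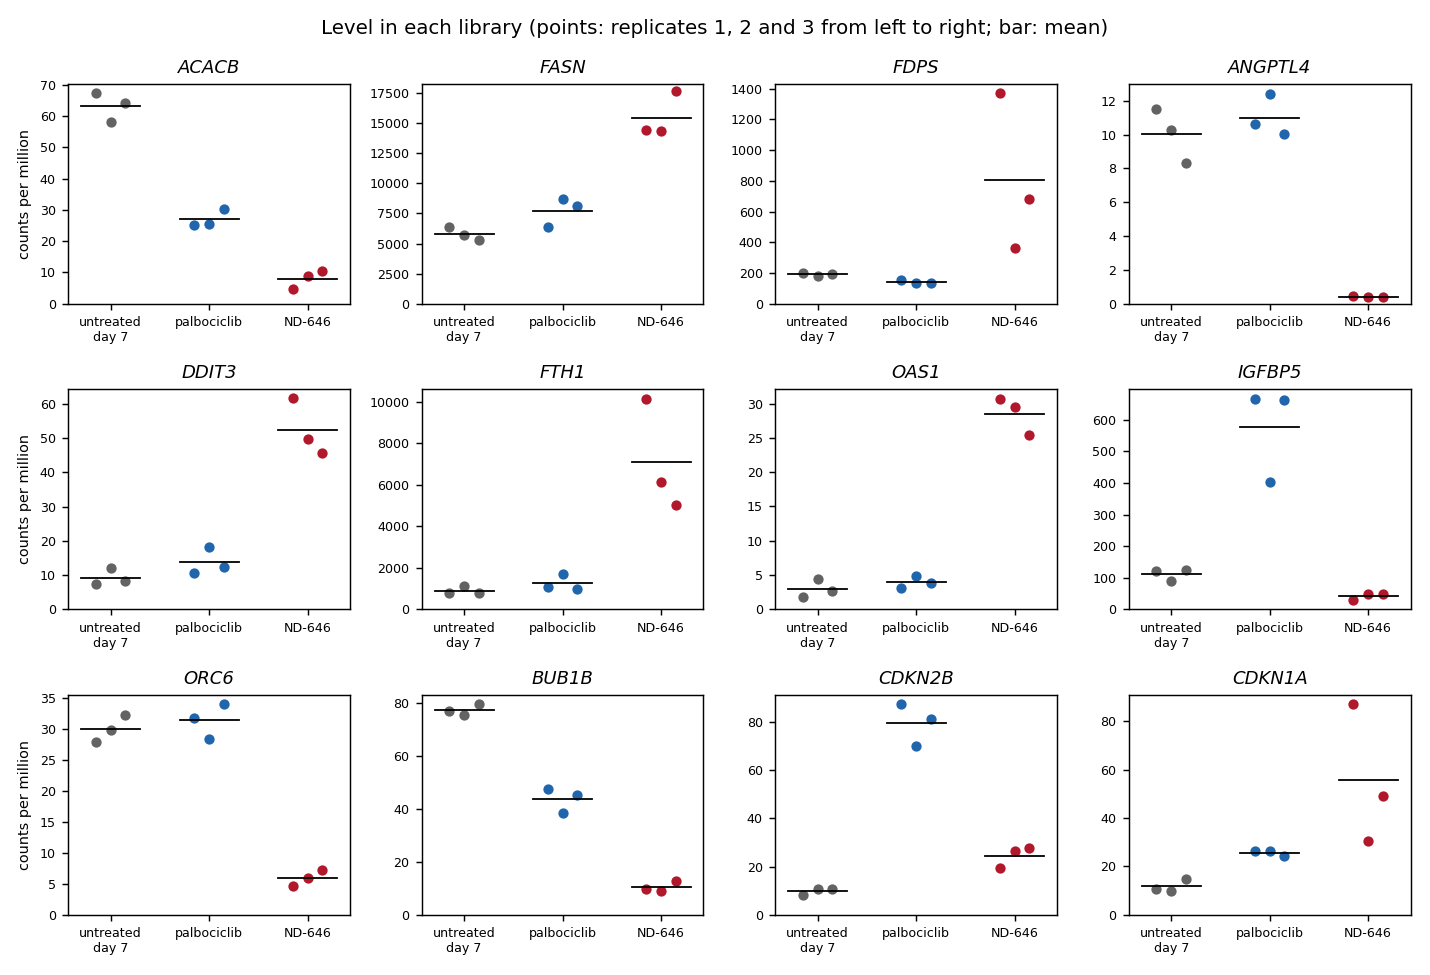
CPM of 12 genes on linear axes from 0 in each untreated day 7, palbociclib and ND-646 library, with points for replicates 1, 2 and 3 from left to right and a bar at the mean. FDPS, DDIT3, FTH1, OAS1 and FASN are highest in the ND-646 libraries, ACACB, ANGPTL4, IGFBP5, ORC6 and BUB1B are lowest there, and CDKN2B is highest in the palbociclib libraries.

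Genes of cholesterol synthesis were higher in ND-646 than in palbociclib cells. Of 21 enzymes tested 16 were higher and 0 lower (76.2% against 12.3% of all genes), with a median log2 difference of 1.24 (0.92 without ND-646 replicate 1). FDPS, which makes farnesyl diphosphate (chr1:155278539-155290457, plus strand in GRCh37), held 1372, 363 and 681 CPM with ND-646, 154, 135 and 134 with palbociclib and 203, 184 and 192 untreated. Each ND-646 library was above each palbociclib and untreated library, although replicate 1 was well above the other 2. The difference between drugs was 2.50 ± 0.42 (SE) on the log2 scale (adjusted p 0.0057 in edgeR), and 1.89 without ND-646 replicate 1. MSMO1, a demethylase late in the sterol branch, held 634, 287 and 445 CPM with ND-646 against 131, 117 and 133 with palbociclib and 108, 115 and 99.6 untreated. ACAT2 differed by 2.01 and MVD by 1.80, but ACAT2 no longer passed without palbociclib replicate 2 or 3, and MVD when any 1 palbociclib library was left out. Without palbociclib replicates 1, 2 and 3 in turn, 8, 8 and 8 enzymes passed, and without ND-646 replicates 1, 2 and 3, 17, 17 and 15. Against untreated cells 15 enzymes rose and 0 fell with ND-646, and 4 rose and 9 fell with palbociclib. Over all genes 17.2% rose and 17.1% fell with ND-646, and 22% rose and 22.9% fell with palbociclib.

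Regulators of sterol synthesis and uptake were also higher with ND-646. In the SREBP and uptake group 11 of 16 genes were higher and 0 lower (68.8%), with a median of 0.70. INSIG1, which holds SREBP in the endoplasmic reticulum, stood at 446, 195 and 329 CPM with ND-646 against 63.3, 66.9 and 73.2 with palbociclib and 82.9, 100.1 and 89.6 untreated (log2 difference 2.24 ± 0.27 (SE)). Every ND-646 library exceeded every palbociclib and untreated library. RNF145, a sterol-responsive ubiquitin ligase, and STARD4, a cholesterol carrier, differed by 1.94 and 1.76. Genes induced by LXR were also represented. Here 4 of 9 were higher, ABCG1, ABCA1, LPCAT3 and SMPDL3A, and 1 lower, ABCA7 (44.4% and 11.1% against 12.3% and 12.9%). ABCG1, an exporter of cholesterol, held 306, 247 and 294 CPM against 38.9, 61.1 and 42.3 (log2 difference 2.57 ± 0.20 (SE)). ABCA1, the other main exporter, differed by 1.37 but passed in only 1 of the 6 fits that left out a library. The counts without palbociclib replicates 1, 2 and 3 were 6, 7 and 7 for the SREBP group and 1, 2 and 2 for the LXR group.

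Fatty acid synthesis and desaturation genes were divided. Of 22 tested 8 were higher and 5 lower (36.4% and 22.7%). FADS2 and FADS1 had the largest differences among the higher genes. FADS2, the delta-6 desaturase of polyunsaturated fatty acids, held 157, 86.9 and 138 CPM with ND-646 and 19.4, 30.3 and 27.3 with palbociclib against 18.96, 27.5 and 16.6 untreated (log2 difference 2.30 ± 0.25 (SE), adjusted p 0.00121 in edgeR), and FADS1, the delta-5 desaturase, held 3.85, 3.37 and 6.21 CPM with ND-646 and 1.39, 1.14 and 1.55 with palbociclib against 2.29, 5.18 and 3.27 untreated. Both were above every palbociclib library in each ND-646 library. For FADS1 the ND-646 and untreated libraries overlapped, and the palbociclib libraries lay below both. FADS1 lies within the span of FADS2 on the opposite strand, and the strand setting is not given, so their reads may be shared. OLAH, the thioesterase that ends medium-chain synthesis (chr10:15074226-15115852, plus strand in GRCh37), went the other way, at 0.0857, 0.682 and 0.211 CPM with ND-646 against 6.98, 7.11 and 7.27 with palbociclib and 2.47, 3.65 and 3.68 untreated. With OLAH and ACACB, the other lower genes were ACSL4, MLYCD and HACD3. With palbociclib replicates 1, 2 and 3 left out in turn the higher counts were 5, 6 and 5 and the lower 2, 4 and 2.

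Genes for the oxidation of fatty acids and other PPAR targets were lower in ND-646 than in palbociclib cells, 8 of 20 with 1 higher, ECI1, an isomerase of unsaturated fatty acid breakdown (40% lower against 12.9% of all genes, median -0.49). ANGPTL4, a secreted inhibitor of lipoprotein lipase (chr19:8428173-8439254, plus strand in GRCh37), held 0.471, 0.395 and 0.421 CPM with ND-646, 10.6, 12.4 and 10.02 with palbociclib and 11.5, 10.2 and 8.34 untreated. The difference was -4.68 ± 0.22 (SE) on the log2 scale (adjusted p 0.000218 in edgeR), with a change against untreated of -4.55 under ND-646 and 0.14 under palbociclib. PDK4, which restrains pyruvate dehydrogenase, was at 1.199, 1.87 and 1.19 CPM with ND-646, 5.504, 6.699 and 6.91 with palbociclib and 1.96, 4.26 and 2.34 untreated. In both genes the ND-646 libraries lay below the palbociclib libraries. CPT1A, which carries long-chain fatty acids into mitochondria and is inhibited by malonyl-CoA, differed by -1.05 ± 0.17 (SE) (adjusted p 0.00489), at 85.2, 127 and 115 against 206, 224 and 246 CPM. Of the receptors themselves, PPARA differed by 0.95 (adjusted p 0.0873 in edgeR), PPARD by -0.23 (0.222) and PPARG by -0.64 (0.0831), and none passed. The lower count was 6, 5 and 5 without palbociclib replicates 1, 2 and 3 and 12, 6 and 7 without ND-646 replicates 1, 2 and 3. TVB-3166 cells held 0.372 ± 0.0894 CPM of ANGPTL4 (SD, n = 3).

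Of 16 triglyceride genes 3 were higher, AGPAT2, LPIN2 and HILPDA, and 1 lower, PNPLA3 (18.8% and 6.25% against 12.3% and 12.9% of all genes). Without palbociclib replicates 1, 2 and 3 the higher counts were 0, 1 and 0. Leaving out ND-646 replicate 1 gave 4 higher and 4 lower. PNPLA3, a lipase of lipid droplets, held 1.03, 1.005 and 2.77 CPM against 6.49, 5.59 and 7.59 and stood at 3.11, 4.23 and 3.24 in untreated cells, a difference between drugs of -2.03 (-2.70 without ND-646 replicate 3). Of 30 glycolysis and glucose uptake genes 6 were higher and 8 lower (20% and 26.7% against 12.3% and 12.9% of all genes). Higher genes numbered 1, 3 and 1 and lower genes 4, 6 and 5 without palbociclib replicates 1, 2 and 3, and without ND-646 replicate 1 they were 10 and 11. The median of 0.12 became -0.12 with library totals alone and -0.04 without ND-646 replicate 1. SLC16A1, the lactate transporter MCT1, had a log2 difference of -1.50 ± 0.14 (SE), at 13.4, 16.4 and 13.2 against 39.8, 40.1 and 41.4 CPM. The glucose transporter gene SLC2A10 was higher by 1.47. PDP1, the phosphatase that opposes the pyruvate dehydrogenase kinases, was higher by 1.41 but lost its call in 5 of the 6 fits that left out a library.

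Most replication genes were lower in ND-646 than in palbociclib cells, and most were below untreated cells under both drugs. Of 32 genes of replication licensing and the fork, 22 were lower and 0 higher (68.8% against 12.9%), with a median of -0.88 (-0.86 without ND-646 replicate 1). Against untreated cells 32 fell with ND-646 (median -1.97) and 30 with palbociclib (median -1.09). ORC6, a subunit of the origin recognition complex whose promoter is printed above (chr16:46723555-46732306, plus strand in GRCh37), held 4.58, 5.92 and 7.301 CPM with ND-646, 31.8, 28.4 and 34.1 with palbociclib and 27.9, 29.9 and 32.2 untreated. The ND-646 libraries lay below all palbociclib and untreated libraries, which overlapped each other. The difference between drugs was -2.41 ± 0.20 (SE) on the log2 scale (adjusted p 0.000632 in edgeR). RFC3, part of the clamp loader, held 9.38, 14.5 and 13.5 CPM with ND-646, 52.9, 49.4 and 54.5 with palbociclib and 50.97, 62.8 and 74.1 untreated. GINS1, a subunit of the replicative helicase, held 7.54, 10.8 and 8.92 CPM with ND-646, 29.7, 23.97 and 29.7 with palbociclib and 58.97, 55.6 and 65.5 untreated. GINS4, another helicase subunit, differed by -2.08 between the drugs. The lower count was 17, 20 and 17 without palbociclib replicates 1, 2 and 3 and 26, 20 and 22 without ND-646 replicates 1, 2 and 3.

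Mitotic genes followed, with 26 of 39 lower in ND-646 cells (66.7%, median -1.09) and 1 higher, CDC25B, a phosphatase of mitotic entry (0.69). Against untreated cells 38 of 39 fell with ND-646 (median -2.51) and 39 of 39 with palbociclib (median -1.34). BUB1B, a kinase-like protein of the spindle checkpoint (chr15:40453224-40513324, plus strand in GRCh37), held 9.64, 8.97 and 12.8 CPM with ND-646, 47.3, 38.6 and 45.2 with palbociclib and 77.1, 75.6 and 79.6 untreated (log2 difference between drugs -2.07 ± 0.18 (SE), adjusted p 0.000663 in edgeR). CDC20, the activator of the anaphase-promoting complex, held 22.96, 11.9 and 18.6 CPM with ND-646, 74.7, 62.6 and 55.6 with palbociclib and 109, 87.8 and 96.1 untreated. Both genes, whose promoters carry the CHR element, stepped down from untreated to palbociclib to ND-646 with no overlap. MAD2L1, a checkpoint protein, and TTK, its upstream kinase, differed by -1.98 and -1.84. The lower count was 15, 22 and 17 without palbociclib replicates 1, 2 and 3 and 36, 20 and 23 without ND-646 replicates 1, 2 and 3.

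Repair genes and the factors that drive S phase were also lower in ND-646 cells. Of 24 genes of homologous recombination and the Fanconi pathway 17 were lower and 0 higher (70.8%, median -1.12). FANCD2, the central Fanconi protein, held 4.97, 7.64 and 9.27 CPM with ND-646, 30.04, 27.7 and 35.01 with palbociclib and 39.4, 34.6 and 37.5 untreated, a difference between drugs of -2.09 ± 0.24 (SE). FANCB, XRCC2 and EME1 differed by -2.02, -1.82 and -1.77. In the group of E2F, FOXM1 and MYBL2 factors 10 of 17 were lower and 0 higher (58.8%, median -0.97). E2F2, an activator of S-phase genes, held 2.44, 2.296 and 2.42 CPM with ND-646 against 6.78, 5.24 and 7.296 with palbociclib and 30.98, 21.5 and 30.2 untreated, and LIN9, a scaffold of the DREAM and MuvB complexes, held 6.21, 11.6 and 10.8 CPM with ND-646 against 28.97, 27.3 and 29.4 with palbociclib and 23.02, 27.997 and 25.9 untreated. In deoxynucleotide synthesis 7 of 14 were lower (50% against 12.9% of all genes), led by CTPS1 (-1.28), TK1 (-1.23) and RRM2 (-1.08). The lower counts without palbociclib replicates 1, 2 and 3 were 11, 12 and 10 for repair, 6, 9 and 6 for the factors and 3, 3 and 3 for deoxynucleotides, and the last was 10, 6 and 4 without ND-646 replicates 1, 2 and 3.

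Around the palbociclib targets 4 of 13 G1 genes were lower in ND-646 cells, CCNE1, SKP2, CCNA2 and CDK2, and 0 higher (30.8%). CCNE1, the cyclin of the G1 to S step (chr19:30302898-30315219, plus strand in GRCh37), held 10.4, 12.1 and 14.8 CPM with ND-646 and 24.7, 26.3 and 24.3 with palbociclib against 28.1, 22.5 and 27.5 untreated, so that its change against untreated was -1.08 under ND-646 (adjusted p 0.00278 in edgeR) and -0.05 under palbociclib (0.745). Each ND-646 library was below each palbociclib library. SKP2, which targets p27 for destruction, differed by -0.98 and lost its call when any 1 palbociclib library was left out. Against untreated cells 8 of the G1 genes fell with ND-646 and 8 with palbociclib, while 1 and 3 rose. Without palbociclib replicates 1, 2 and 3 the lower count between the drugs was 2, 3 and 3, and without ND-646 replicate 1 it was 6.

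**Figure D3:**
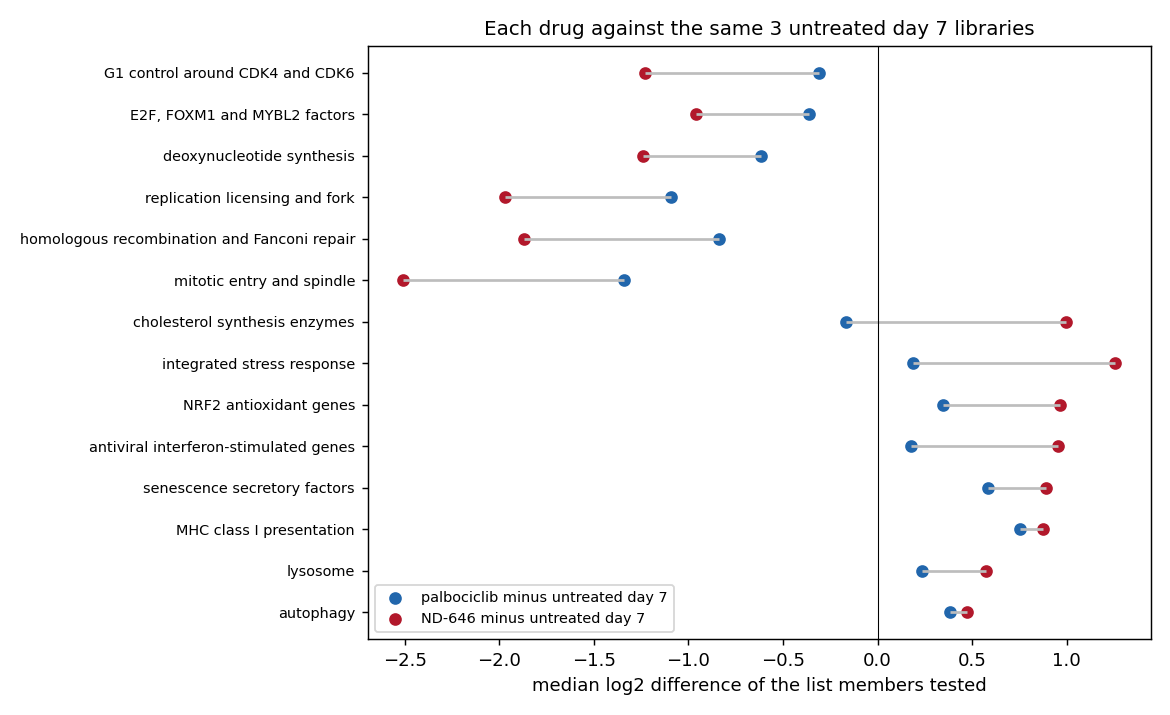
Median log2 difference from the same 3 untreated day 7 libraries of the tested members of 14 gene lists, in blue for palbociclib and in red for ND-646, joined by a grey line. The mitotic list lies at -1.34 for palbociclib and -2.51 for ND-646, and cholesterol synthesis at -0.16 and 1.00.

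Of 6 CDK inhibitor genes tested 2 were higher, CDKN1A and CDKN1B, and 2 lower, CDKN2B and CDKN2A (33.3% each against 12.3% and 12.9%). CDKN2B, which encodes the CDK4/6 inhibitor p15, held 19.6, 26.3 and 27.8 CPM with ND-646 and 87.5, 70.04 and 81.4 with palbociclib against 8.22, 10.7 and 10.7 untreated (log2 difference between drugs -1.70 ± 0.17 (SE), adjusted p 0.000943 in edgeR). CDKN2A, the gene of p16 and ARF, held 8.91, 7.14 and 5.51 CPM with ND-646 against 16.4, 15.2 and 15.7 with palbociclib and 12.5, 11.2 and 12.5 untreated, and both INK4 genes were lower in every ND-646 than in every palbociclib library. CDKN1A, the gene of p21, was higher by 1.10 (adjusted p 0.0431), at 87.2, 30.6 and 49.2 CPM with ND-646 against 26.5, 26.3 and 24.4 with palbociclib and 10.8, 9.87 and 14.9 untreated. That call was lost without palbociclib replicate 1, 2 or 3 or ND-646 replicate 3. CDKN1B, the gene of p27, was higher by 0.58 and lost its call when any 1 palbociclib library was left out. Of 25 p53 target genes 8 were higher and 3 lower, BTG2, SESN1 and TIGAR (32% and 12% against 12.3% and 12.9% of all genes). With palbociclib replicates 1, 2 and 3 left out in turn the higher counts were 4, 7 and 6 and the lower 1, 3 and 2, and without ND-646 replicate 1 they were 9 and 5. BTG2, an antiproliferative gene, held 5.23, 9.72 and 7.44 CPM with ND-646 against 26.2, 27.7 and 33.5 with palbociclib and 6.39, 6.22 and 8.04 untreated, and DDB2, a damage recognition protein, differed by 1.31.

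In the BCL-2 family 4 of 16 genes were higher, BBC3, BIK, PMAIP1 and BNIP3, and 1 lower, BID. These shares were 25% and 6.25% against 12.3% and 12.9% of all genes, with 2, 3 and 2 higher without palbociclib replicates 1, 2 and 3. BBC3, the death gene PUMA (chr19:47724079-47736023, minus strand in GRCh37), held 29.2, 16.1 and 19.9 CPM with ND-646, 4.43, 5.62 and 4.75 with palbociclib and 4.37, 4.78 and 3.92 untreated, with a log2 difference of 2.12 ± 0.24 (SE) and an adjusted p of 0.00131 in edgeR. BIK, another BH3-only death gene, held 10.9, 10.4 and 10.7 against 4.64, 4.22 and 4.43 CPM. PMAIP1, the death gene NOXA, lost its call in 5 of the 6 fits that left out a library. The survival genes BCL2 (-0.14), BCL2L1 (0.16) and MCL1 (0.08) did not pass. Among 14 histone genes 4 were lower, H3C4, H2BC8, H2BC4 and H2BC21, and 1 was higher (28.6% and 7.14% against 12.9% and 12.3%). The lower count was 2, 1 and 1 without palbociclib replicates 1, 2 and 3. It was 5, 2 and 1 without ND-646 replicates 1, 2 and 3. Reads of the core histones may be shared among near copies.

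Genes of the integrated stress response, in which ATF4 is translated when the initiation factor eIF2 is phosphorylated, were higher with ND-646, 24 of 29 (82.8% against 12.3% of all genes), with a median of 1.20. The 1 lower member was ATF3 (-0.60), a stress-induced factor. ND-646 cells had 27 of these genes above untreated and 0 below (median 1.26), palbociclib cells 8 and 2 (median 0.19). GDF15, a secreted stress cytokine (chr19:18485541-18499986, plus strand in GRCh37), held 193, 69.2 and 86.5 CPM with ND-646, 11.6, 21.6 and 12.4 with palbociclib and 1.85, 5.501 and 2.14 untreated. The log2 difference was 2.92 ± 0.42 (SE) and the adjusted p 0.0031 in edgeR, and the change against untreated was 5.19 and 2.28 under the drugs in the same order. DDIT3, the gene of the death-linked factor CHOP, held 61.6, 49.7 and 45.6 CPM with ND-646, 10.7, 18.3 and 12.4 with palbociclib and 7.41, 12.04 and 8.16 untreated. PHGDH, the first enzyme of serine synthesis, held 449, 256 and 272 CPM with ND-646, 74.7, 114 and 79.8 with palbociclib and 134, 199 and 146 untreated. In all 3 genes each ND-646 library was above each palbociclib library. NIBAN1, a stress-induced regulator of translation, differed by 2.88 (3.70 without palbociclib replicate 2), and ATF4 itself by 1.20. The higher count was 16, 21 and 16 without palbociclib replicates 1, 2 and 3 and 26, 24 and 23 without ND-646 replicates 1, 2 and 3.

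Cytosolic tRNA synthetases charge tRNAs and include several ATF4 targets. Of 20 tested 7 were higher and 1 lower, VARS1 (35% and 5% against 12.3% and 12.9% of all genes). SARS1, for serine, held 597, 374 and 379 CPM with ND-646 against 163, 211 and 167 with palbociclib and 180.4, 223 and 214 untreated, and AARS1, for alanine, 735, 618 and 612 CPM with ND-646 against 257, 338 and 259 with palbociclib and 279, 368 and 290.3 untreated. WARS1 and GARS1 differed by 0.93 and 0.73, and GARS1 lost its call in 2 of the 6 fits that left out a library. Of 23 genes of the unfolded protein response 7 were higher and 0 lower (30.4% higher against 12.3% of all genes). These held the 3 sensors of the pathway, ERN1 (1.33), EIF2AK3 (1.05) and ATF6 (0.76). The chaperone gene HSPA5 differed by 0.75 and lost its call when any 1 palbociclib library was left out, while HSP90B1 (-0.06), DNAJB9 (0.06) and XBP1 (0.19) did not pass. The higher counts without palbociclib replicates 1, 2 and 3 were 3, 5 and 3 for the synthetases and 3, 3 and 3 for the unfolded protein response. Without ND-646 replicate 1 8 synthetases were higher and 4 lower.

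Genes of iron storage and redox defence were higher with ND-646, 11 of 21 NRF2 genes with 0 lower (52.4%, median 0.90). FTH1, the ferritin heavy chain (chr11:61727190-61735106, minus strand in GRCh37), held 10140.2, 6129 and 5036 CPM with ND-646, 1096, 1694 and 999 with palbociclib and 765, 1137 and 793 untreated. The difference was 2.48 ± 0.32 (SE) on the log2 scale (adjusted p 0.00223 in edgeR), and FTL, the light chain, differed by 1.43 ± 0.25 (SE) with 738, 427 and 384 against 185, 219.6 and 167 CPM. Both ferritin genes were higher in every ND-646 than in every palbociclib library, and both have processed pseudogenes that may share their reads. SLC7A11, the cystine importer whose loss sensitises cells to ferroptosis, held 126, 131 and 172 CPM with ND-646 against 45.7, 56.9 and 48.9 with palbociclib and 27.1, 48.5 and 32.2 untreated. NFE2L2, the gene of NRF2, differed by 0.42. Without palbociclib replicates 1, 2 and 3 the count was 6, 9 and 6.

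More lysosome genes rose than fell against untreated cells under both drugs, 19 of 34 with ND-646 (2 fell) and 17 of 34 with palbociclib (4 fell), against 17.2% and 22% of all genes that rose. Between the drugs 6 of 34 were higher with ND-646 and 2 lower, CTSV and GLA (17.6% higher against 12.3% of all genes), and without ND-646 replicate 1 12 were higher and 4 lower. CD63, a tetraspanin of late endosomes (chr12:56119107-56123491, minus strand in GRCh37), held 886, 437 and 475 CPM with ND-646, 161, 184 and 175 with palbociclib and 145, 157 and 142 untreated, with a difference between drugs of 1.78 ± 0.26 (SE). NEU1, the lysosomal sialidase, held 210.3, 105 and 115 CPM with ND-646, 54.1, 59.2 and 51.8 with palbociclib and 54.5, 42.4 and 43.8 untreated. GLB1, the gene of the beta-galactosidase stained in senescent cells, stood at 245, 211 and 219.6 CPM with ND-646 and 199.5, 194 and 207 with palbociclib against 168, 165 and 155 untreated, and the drugs differed by 0.16 with an interval of -0.10 to 0.42. Of 29 autophagy genes 5 were higher, SQSTM1, MAP1LC3B, ATG7, CALCOCO2 and ULK1, and 2 lower, MITF and GABARAPL1 (17.2% and 6.9% against 12.3% and 12.9%), and without ND-646 replicate 1 the counts were 9 and 3. SQSTM1, the cargo receptor p62, held 1864, 1282 and 1334 CPM with ND-646 against 552, 651 and 560.2 with palbociclib and 332, 365 and 331 untreated. The higher counts without palbociclib replicates 1, 2 and 3 were 3, 3 and 3 for the lysosome and 1, 2 and 1 for autophagy, and MAP1LC3B lost its call in 4 of the 6 fits that left out a library.

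Antiviral genes induced by interferon were higher in ND-646 cells, 10 of 18 tested with 0 lower (55.6% against 12.3%, median 0.94). A further 14 genes of that list of 32, among them IFIT1, IFIT2 and RSAD2, were not analysed here, and the lowest count in the table is 1, so that it holds genes detected in every library. OAS1, a sensor of double-stranded RNA (chr12:113343661-113371024, plus strand in GRCh37), held 30.7, 29.5 and 25.4 CPM with ND-646, 3.07, 4.89 and 3.83 with palbociclib and 1.76, 4.401 and 2.67 untreated (log2 difference between drugs 2.85 ± 0.20 (SE), adjusted p 0.000476 in edgeR). OAS2, its relative, held 6.21, 11.1 and 6.74 CPM with ND-646, 1.04, 1.62 and 1.08 with palbociclib and 0.529, 1.04 and 1.19 untreated. IFI6, an interferon-induced membrane protein whose promoter is printed above, held 19.02, 11.2 and 9.899 CPM with ND-646, 2.95, 3.43 and 3.05 with palbociclib and 4.78, 7.44 and 5.22 untreated. In these 3 genes the ND-646 libraries were above all palbociclib libraries, and OAS3 differed by 2.002. Of 20 genes of interferon signalling 4 were higher, IRF7, IRF9, IFNGR2 and IFNGR1, and 0 lower (20% higher against 12.3% of all genes). Without ND-646 replicate 1 8 were higher and 1 lower. IRF7, the master factor of type I interferon genes, held 18.97, 11.2 and 13.9 CPM with ND-646 against 3.82, 1.59 and 2.87 with palbociclib and 5.93, 3.56 and 4.87 untreated, and IRF9, which completes the complex that binds the interferon element, held 26.3, 24.003 and 20.5 CPM with ND-646 against 7.45, 6.92 and 7.77 with palbociclib and 4.74, 6.66 and 6.95 untreated. Its partner STAT2 (-0.50, adjusted p 0.0848) did not pass in edgeR. The antiviral count was 5, 6 and 4 without palbociclib replicates 1, 2 and 3 and 12, 6 and 8 without ND-646 replicates 1, 2 and 3.

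More MHC class I genes rose than fell under both drugs against untreated cells, 8 of 14 with ND-646 (0 fell) and 9 of 14 with palbociclib (0 fell), against 17.2% and 22% of all genes that rose. Between the drugs 3 of 14 were higher, NLRC5, B2M and PSMB10, and 2 lower, PSMB9 and TAP2 (21.4% and 14.3% against 12.3% and 12.9%). Higher genes numbered 1, 2 and 1 and lower genes 1, 1 and 0 without palbociclib replicates 1, 2 and 3, and without ND-646 replicate 1 they were 5 and 3. NLRC5, the transactivator of this gene family, held 2.57, 3.16 and 3.37 CPM with ND-646, 0.8401, 0.857 and 0.957 with palbociclib and 0.661, 0.8396 and 0.623 untreated (log2 difference 1.77 ± 0.24 (SE)). HLA-B and HLA-C, whose reads may be shared, differed by 0.38 and 0.59 and did not pass. Of 15 genes of NF-kB and its feedback 6 were higher and 1 lower, TNFAIP2 (40% and 6.67% against 12.3% and 12.9%). BIRC3, an inhibitor of apoptosis induced by NF-kB, held 16.8, 23.7 and 20.96 CPM with ND-646 against 6.1995, 6.604 and 7.86 with palbociclib and 3.26, 4.14 and 3.44 untreated, and NFKBIA, the inhibitor IkB-alpha, held 155, 88.7 and 105 CPM with ND-646 against 58.1, 43.8 and 54.2 with palbociclib and 69.4, 59.1 and 82.01 untreated. RELB differed by 1.15 and lost its call when any 1 palbociclib library was left out, and RELA differed by 0.20 and did not pass. The higher count of the NF-kB group was 2, 2 and 2 without palbociclib replicates 1, 2 and 3.

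The secretory genes of senescence moved both ways. Of 27 tested 11 were higher with ND-646 and 5 lower (40.7% and 18.5%), while 20 of the 47 listed, among them IL6, IL1A and CXCL8, were not analysed here. CSF1, the growth factor of macrophages (chr1:110452864-110473614, plus strand in GRCh37), held 30.9, 25.9 and 30.9 CPM with ND-646, 4.14, 4.79 and 4.63 with palbociclib and 5.62, 6.08 and 4.45 untreated (log2 difference between drugs 2.68 ± 0.15 (SE), adjusted p 0.000381 in edgeR). CX3CL1, the chemokine fractalkine, held 304, 202 and 231 CPM with ND-646, 47.9, 45.2 and 46.02 with palbociclib and 51.7, 39.3 and 34.7 untreated. CCL22, a chemokine for regulatory T cells, held 43.8, 27.4 and 25.5 CPM with ND-646, 3.62, 4.89 and 3.38 with palbociclib and 1.65, 2.26 and 1.54 untreated. In all 3 genes the ND-646 libraries were above every palbociclib and untreated library. The lower genes included IGFBP5, IGFBP7, IGFBP3 and TGFB2, led by IGFBP5 at -3.79, which stood at 122, 90.8 and 124 CPM in untreated cells and changed against them by -1.43 under ND-646 and 2.38 under palbociclib. With palbociclib replicates 1, 2 and 3 left out in turn the higher counts were 5, 6 and 6 and the lower 4, 4 and 3, and without ND-646 replicates 1, 2 and 3 the lower counts were 7, 5 and 3.

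Of 17 acute-phase and epithelial defence genes 7 were higher with ND-646 and 2 lower, C1S and SAA1 (41.2% and 11.8% against 12.3% and 12.9%). Without ND-646 replicate 1 4 were lower. LCN2, the iron-scavenging lipocalin (chr9:130911350-130915732, plus strand in GRCh37), held 145, 119 and 96.5 CPM with ND-646, 6.52, 17.3 and 10.2 with palbociclib and 0.375, 1.22 and 0.267 untreated (log2 difference 3.40 ± 0.35 (SE), adjusted p 0.000943 in edgeR). MUC16, the mucin detected as CA125, held 1.37, 2.48 and 2.98 CPM with ND-646, 0.203, 0.1905 and 0.359 with palbociclib and 2.29, 1.27 and 1.07 untreated. Both were above every palbociclib library in each ND-646 library, and MUC16 overlapped the untreated range. Of 35 actin and adhesion genes 7 were higher and 7 lower (20% and 20% against 12.3% and 12.9% of all genes). Higher genes numbered 2, 1 and 1 and lower genes 5, 6 and 5 without palbociclib replicates 1, 2 and 3, and with library totals alone 2 were higher and 10 lower. TPM2, a tropomyosin of actin filaments, held 0.514, 0.897 and 0.983 CPM with ND-646 against 3.22, 2.32 and 5.44 with palbociclib and 0.705, 0.434 and 0.534 untreated, ITGB6, an epithelial integrin, 69.3, 139 and 132 CPM with ND-646 against 334, 319.8 and 404 with palbociclib and 42.8, 95.7 and 69.8 untreated, and LAMA3, a laminin chain of epithelia, 3.598, 4.74 and 5.897 CPM with ND-646 against 13.4, 11.5 and 16.4 with palbociclib and 8.66, 7.87 and 7.96 untreated.

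Mitochondrially encoded mRNAs were higher with ND-646, 11 of 13 with 0 lower (84.6%), with a median of 1.27 (1.18 without ND-646 replicate 1). They took 5.94%, 5.36% and 5.19% of counts in ND-646 replicates 1, 2 and 3 and 3.11%, 1.75% and 3.38% in palbociclib replicates 1, 2 and 3. COX2, the mitochondrial gene of cytochrome oxidase subunit 2, held 11816, 6209 and 6455 CPM with ND-646, 1970.4, 1352 and 2397 with palbociclib and 1694, 764 and 758 untreated (log2 difference 2.08 ± 0.33 (SE)). ND3, of complex I, and ATP6, of the ATP synthase, differed by 1.92 and 1.74. COX3 differed by 1.56 and lost its call when any 1 palbociclib library was left out. The count was 5, 8 and 7 without palbociclib replicates 1, 2 and 3. In these polycistronic transcripts the genes share their source. Untreated day 0 replicate 1 had a share of 8.01% for these mRNAs, so the share also varied in cells given no drug, and the part of library composition in the difference was not tested.

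The calls of ribosomal protein mRNAs depended on which libraries were in the fit. Of 48 tested 5 were higher, among them RPS28, RPS21, RPS27 and RPL23, a share of 10.4% against 12.3% of all genes, although the median was 0.76. Without ND-646 replicate 1, 27 passed with a median of 0.33. RPS28 differed by 1.28, and by 0.62 without ND-646 replicate 1. Their share of counts was 7.49% in ND-646 replicate 1 against 4.71% and 4.36% in replicates 2 and 3 and 3.72% to 4.48% in palbociclib cells. Without palbociclib replicates 1, 2 and 3 the counts were 0, 0 and 0, and without ND-646 replicate 3 24 passed. With a length trend removed from each library 22 passed with a median of 0.45. The count was 31 with DESeq2, 42 with all 24 libraries in 1 fit and 17 with the replicate block. Nucleolar genes of ribosome biogenesis went the other way, 12 of 32 lower and 0 higher (37.5%, median -0.36), led by POLR1B (-0.85), which lost its call in 4 of the 6 fits that left out a library. NOP56, a core protein of box C/D particles, held 101, 112 and 104 CPM with ND-646 against 197, 165 and 184 with palbociclib and 215, 175 and 199 untreated, with no overlap between the drugs. The lower count was 2, 4 and 2 without palbociclib replicates 1, 2 and 3 and 20, 9 and 8 without ND-646 replicates 1, 2 and 3.

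Markers of the line were present in all 6 libraries. ERBB2 was at 8591, 6378 and 7288 CPM in ND-646 cells and 6461, 6413 and 6679.5 in palbociclib cells, a difference of 0.18 that did not pass (adjusted p 0.501 in edgeR). In the ERBB group 1 of 12 genes was higher, LRIG1, and 2 lower, ERBB4 and BTC (8.33% and 16.7% against 12.3% and 12.9%). Without ND-646 replicate 1 5 were higher and 3 lower. Of 15 luminal markers 4 were higher, KRT7, SPDEF, ELF3 and ESRP1, and 3 lower, among them TFAP2B and GATA3 (26.7% and 20% against 12.3% and 12.9% of all genes). With palbociclib replicates 1, 2 and 3 left out in turn the higher counts were 0, 1 and 0 and the lower 1, 2 and 1, and without ND-646 replicate 1 they were 4 and 6. GATA3, the luminal lineage factor, held 85.2, 94.5 and 88.1 CPM with ND-646 against 172, 164 and 168 with palbociclib and 153, 122 and 143 untreated. The summed luminal level was 27351, 17640.4 and 19140.2 CPM in ND-646 replicates 1, 2 and 3 and 18842 to 19629 in palbociclib cells. Of 17 basal and mesenchymal markers 5 were tested, with KRT17 higher (1.90) and FN1 lower (-2.07), and their summed level was 96.9 to 188 CPM against 477 to 728. KRT5, KRT14 and VIM were among the 12 not analysed here. Of 12 blood and endothelial markers 3 were tested, CD68 (2.11), VWF (-2.97) and CDH5 (-1.78), all of which passed, and their sum was 53.9 to 64.6 CPM with ND-646, 47.5 to 57.0 with palbociclib and 6.55 to 13.4 untreated. CD68, which also marks lysosomes in other cells, held 54.95, 43.7 and 42.02 CPM with ND-646 against 8.49, 12.9 and 11.03 with palbociclib and 3.68, 7.32 and 5.82 untreated. The leukocyte and vessel genes PTPRC and PECAM1 were not analysed here, and the part of other cell types in the results was not tested.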

How the data were processed

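RNA-seq of SKBR3 cells was deposited as 1 table of raw read counts per gene for 24 libraries, 8 groups of 3. The authors aligned reads with HISAT2 to GRCh37 and assembled transcripts with StringTie, then used DESeq2. The strand setting and how reads were assigned to genes are not given in the sources used here. The methods and the labels name different TruSeq kits (total RNA and mRNA). The lowest count in the deposited table is 1, so it holds no gene with 0 reads in a library. No source says that libraries came from separate cultures, so p-values measure only the spread between these samples.

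ND-646 and palbociclib libraries were compared with edgeR 4.0.16 in R 4.3.3 (filterByExpr, TMM scaling, quasi-likelihood F test, Benjamini-Hochberg adjustment over all tested genes). Genes passed at an adjusted p under 0.05, and standard errors are the difference divided by the root of F. Levels are CPM with TMM factors of all 24 libraries and are not corrected for length. Each drug was also compared with untreated day 7 libraries, which both comparisons share. An exact permutation test of 3 against 3 cannot go below p = 0.1, so none was used. The fits were checked on simulated counts. Named genes were the 12 with the largest differences in each direction (adjusted p under 0.05, no overlap, at least 5 CPM in the higher group), the drug targets with their partners and FASN, up to 4 passing members of each of 37 lists and a known regulator of each. Genes named outside this rule, as to complete a count of 5 or fewer, were chosen after their values were seen. The comparison and lists were chosen with earlier results of these data known. Gene positions are GRCh37 and promoters RefSeq GRCh38.p14. Alternatives were RLE size factors, library totals, no filter, a minimum of 10 counts in every library, all 24 libraries in 1 fit, a replicate block, a raw p under 0.05, untreated day 0 as reference, DESeq2 1.42.0 and each library left out. A length trend removed from each library was added after seeing the data. Some genes that meet the naming rule are not reported here.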

Additional observations from a re-analysis of the deposited data

How the results depend on the processing

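The 2-fold counts between the drugs, 685 higher and 892 lower, became 405 and 1343 with library totals alone. They ranged from 416 to 786 and from 589 to 926 over the fits that left out a library. Against untreated cells those ranges were 868 to 1143 and 967 to 1246 for ND-646, and 749 to 960 and 567 to 714 for palbociclib. The main counts against untreated day 7 cells were 1100 higher and 1127 lower with ND-646, and 879 and 639 with palbociclib. For ND-646 they became 716 and 1577 with library totals alone. For palbociclib they became 1424 and 837 with untreated day 0 as reference. List medians that changed sign with library totals alone were glycolysis (-0.12), the BCL-2 family (-0.036), the ERBB group (-0.025), tRNA synthetases (-0.057), the unfolded protein response (-0.040), MHC class I (-0.022), autophagy (-0.084), luminal (-0.078), basal (-0.16), acute-phase (-0.17), triglyceride (-0.23) and actin genes (-0.23). In that fit the median of all genes was -0.23. Relative to it these list medians stayed above 0, from 0.003 for actin genes to 0.21 for MHC class I. With the 10-count minimum blood and endothelial markers became 0.15. Without ND-646 replicate 1 glycolysis became -0.035 (up to 0.17 without replicate 2) and triglyceride genes -0.054, without palbociclib replicate 1 acute-phase genes became -0.17, and without ND-646 replicate 3 basal markers became -0.13. The actin, triglyceride, acute-phase and histone medians, all within 0.03 of 0, also changed sign under other alternatives. Among the differences of 165 named genes recomputed under each alternative, 2131 kept their side of the threshold, 155 lost their call and 8 gained one. A further 7, of genes that did not pass, changed sign, and 0 of genes that passed reversed. Most of these genes were named for large passing differences, so few reversals were possible. Deviations of same-numbered ND-646 and palbociclib libraries had correlations of 0.23, -0.01 and 0.43, against -0.40 to 0.21 for differently numbered ones. The main fit did not take the numbers as pairs. In palbociclib cells the share of counts under 1 kb was also highest in replicate 1 (7.66%, 7.36% and 6.85%). The same held in untreated day 7 (8.13%, 7.47% and 7.48%) and TVB-3166 cells (8.64%, 7.91% and 7.65%). In other groups of the series it held in alisertib (7.40%, 7.30% and 6.95%), bleomycin (9.10%, 8.67% and 7.83%) and untreated day 0 cells (9.47%, 8.37% and 7.72%). It did not hold in doxorubicin cells (7.29%, 7.68% and 6.32%). Whether same-numbered libraries share an effect was not tested. With the replicate block 684 genes were higher and 955 lower. Having 3 libraries a group, the departure of ND-646 replicate 1, and a table without counts of 0 limit these results.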
